A study of Mus musculus with 4 samples.

Results

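The 9 genes described here encode components and receptors of complement: the recognition chains C1qa, C1qb and C1qc, the classical-pathway proteins C4b and C2, the alternative-pathway protein Cfb, the central component C3, and the anaphylatoxin receptors C3ar1 and C5ar1. They were taken by gene symbol from the 22206 transcript clusters (the array's units, usually 1 a gene) of a salivary gland expression dataset, with the cluster of highest mean over the 4 arrays standing for each gene. Altogether 10 clusters carried one of the 9 symbols, and C2 was the gene that had more than 1. RNA came from parotid, sublingual and submandibular glands pooled per animal from 2 Nfkbiz-/- mice (M47 and M49) and 2 wild-type Nfkbiz+/+ mice (M30 and M55), with 1 Affymetrix whole-transcript array per mouse. All were 20 weeks old, kept under specific pathogen-free conditions and not cohoused with the other genotype. The methods describe a pilocarpine injection to collect saliva at that age, and the labels mention isoflurane only. By the study's methods all were female, bred from Nfkbiz+/- stock of a mixed background. The label of M47 gives female sex but another strain, ICR, and the labels of the other mice give neither. Nfkbiz-/- mice lack in all cells, and not only in the gland, IκB-ζ, an inducible nuclear protein that modifies transcription by NF-κB. The study asked whether the oral microbiota of these mice goes with altered production of antimicrobial proteins by the glands, and complement belongs to the innate antimicrobial proteins.

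Complement is a cascade of proteins in blood and tissue fluid that tags microbes and damaged cells. In the classical pathway C1q binds antibody or other ligands, and its proteases cleave C4 and C2 to form an enzyme that cleaves C3. In the alternative pathway factor B, the product of Cfb, pairs with a C3 fragment to form a second such enzyme, so that both routes meet at C3. Cleavage of C3 and C5 releases the anaphylatoxins, which are sensed by C3ar1 and C5ar1 on myeloid and other cells. The liver makes most plasma C3, epithelial cells can also make it, and macrophages and dendritic cells are main sources of C1q.

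Promoter sequence was at hand for 5 of the 9 genes (C1qb, C1qc, C3, C3ar1 and C5ar1) in a RefSeq table of GRCm38.p6. The 250 bases before the start site were searched on both strands for the core of the interferon-stimulated response element (GAAANNGAA), the gamma-activated site (TTCNNNGAA), a C/EBP motif (TTGCNNAA, added after the sequences were seen) and the degenerate kappaB motif. Shown are the promoters of C3, the gene with the widest difference below, and of C3ar1, the receptor for its released fragment, each 5′ to 3′ along its gene with any match in capitals. They lie at chr17:57228137-57228386 (C3) and chr6:122856158-122856407 (C3ar1), both on the minus strand.
C3: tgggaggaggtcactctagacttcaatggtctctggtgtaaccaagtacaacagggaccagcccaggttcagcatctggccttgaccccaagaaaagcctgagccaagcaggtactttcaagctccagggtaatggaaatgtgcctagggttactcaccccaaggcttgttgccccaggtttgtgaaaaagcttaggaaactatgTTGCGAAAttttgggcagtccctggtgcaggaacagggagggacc
C3ar1: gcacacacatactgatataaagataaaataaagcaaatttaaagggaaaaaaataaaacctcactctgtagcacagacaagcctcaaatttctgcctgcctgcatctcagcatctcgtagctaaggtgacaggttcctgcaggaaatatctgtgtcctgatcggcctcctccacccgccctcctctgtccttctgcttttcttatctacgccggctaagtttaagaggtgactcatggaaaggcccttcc

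In C3 the match was to the C/EBP motif, from 45 to 38 bases before the start, and such a match was present in 9.56% of the 32851 promoters in the table. In C1qc it was to the kappaB motif, from 41 to 32 bases before the start, as in 5.93% of promoters. In C5ar1 it was to the interferon-stimulated response element core on the strand opposite to the gene, from 66 to 58 bases before the start, as in 7.13% of promoters. The gamma-activated site, present in 7.02% of promoters, was in none of the 5, and the windows of C1qb and C3ar1 held none of the motifs. Read along the gene, the windows of C1qc and C5ar1 begin upstream and end inside their genes, in the deposited annotation and in RefSeq. Their distances are counted from the start site that the window assumes. The C5ar1 match lies inside the gene in both annotations. The C1qc match lies inside the gene as deposited and before it in RefSeq. These are matches of letters only, and binding was not measured.

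The values are log2 signals from RMA, the standard background correction, quantile normalization and probe summary for these arrays. The median of an array was 4.83 to 4.89, its lower quartile 3.44 to 3.53 and its upper quartile 6.13 to 6.19. Differences are given as Nfkbiz-/- minus Nfkbiz+/+ with the standard error (SE) and p from limma, which was fitted to all clusters. A gene is called higher or lower at an unadjusted p under 0.05 together with at least a 1.5-fold change, the thresholds of the study. By limma 0 of the 22206 clusters had an adjusted p under 0.05 while 2015 had an unadjusted p under 0.05, and 2 clusters reached an adjusted p under 0.05 by the methods' t-test run with equal variances and 1 with unequal variances (the methods do not say which form was used). Every call below therefore rests on unadjusted p. The targeted gene Nfkbiz had log2 values of 6.18 (M47) and 5.78 (M49) against 5.04 (M30) and 7.29 (M55). Neither the labels nor the methods say whether its probes fall in the deleted part, so they are no test of the labels. M55 stood apart in markers of fat and muscle. The mean of 10 adipocyte genes was 5.87 in M55 and at most 4.57 in the others, and that of 9 skeletal muscle genes was 5.42 against 3.66 to 3.88. Results are therefore also given without each mouse. Such a fit leaves 1 mouse in a genotype, so a gene's own spread comes from the other genotype only. Leaving out a mouse that differs from its pair can thus make the thresholds easier to pass. Calls without a mouse are a description and no measure of stability. Salivary secretory and duct genes were bright in every mouse, with 12 of 14 listed genes in the table and a mean log2 value of 11.9 to 12.1, and of these Egf was called higher (0.73, SE 0.30) and Dcpp2 lower (-0.67, SE 0.20).

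Of the 9 complement genes, 3 were higher in Nfkbiz-/- glands (C3, C4b and C1qa) and 0 were lower. These calls are those of limma, and with unchanged thresholds the methods' t-test called 1 of the 9 (C4b) with equal variances and 0 with unequal variances. Over all clusters 2.93% were called higher and 3.69% lower. Both Nfkbiz-/- values lay above both Nfkbiz+/+ values for 6 of the 9 genes, against 18.2% of all clusters. The median log2 difference of the 9 genes was 0.53, and that of all clusters was -0.02. The cluster that stands for C2 here lies outside the C2 gene, and with the cluster on the gene, described below, 7 of the 9 were without overlap and the median was 0.58. By the chosen clusters Cfb, C2 and C5ar1 were the 3 genes whose genotypes overlapped. The RNA is from whole gland, in which more cells of a type and more RNA per cell cannot be told apart.

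**Figure D1:**
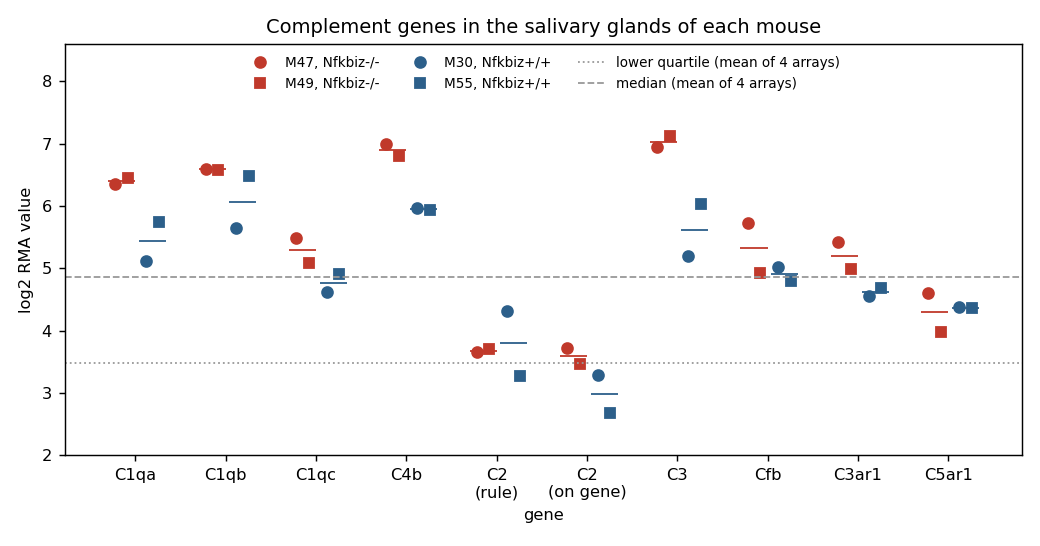
Log2 RMA value (vertical axis) of each complement gene (horizontal axis) in the 4 mice; red symbols are Nfkbiz-/- mice, blue symbols Nfkbiz+/+ mice, short lines the group means (n = 2) and the grey lines the mean median and lower quartile of the arrays. C3, C4b and C1qa are separated by at least 0.60 between genotypes, while Cfb, C5ar1 and the C2 cluster chosen by the rule overlap; C2 is drawn for both of its clusters.

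C3, the component on which all pathways converge, showed the widest difference among the 9 genes. Its log2 value was 6.94 (M47) and 7.12 (M49) against 5.19 (M30) and 6.03 (M55). Both Nfkbiz-/- mice were high and lay 0.92 or more above the higher of the wild-type mice, which themselves differed by 0.84. The log2 difference was 1.42 (SE 0.30), a 2.68-fold higher level (moderated t 4.79, adjusted p = 0.468 by limma). It was 1.84 without M55 and 1.01 without M30. Neither form of the methods' t-test called C3. C3 (Gene ID 12266) lies on the minus strand of chromosome 17 from 57203970 to 57228136, and its cluster spans the whole gene (coordinates are those of GRCm38).

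In the classical pathway, C4b was nearly 2-fold higher, and of the called genes it had the wild-type mice closest together. C4b, the mouse C4 gene whose product joins C2 in the classical C3-cleaving enzyme, had log2 values of 7.0 (M47) and 6.80 (M49) against 5.96 (M30) and 5.94 (M55). The genotypes were 0.84 apart at their nearest, while the mice of a genotype differed by 0.20 and 0.02. The log2 difference was 0.95 (SE 0.21), or 1.93-fold (moderated t 4.63, adjusted p = 0.468 by limma), and ranged from 0.85 to 1.05 without each mouse. The methods' t-test with unequal variances did not call it. C4b lies at chromosome 17 from 34728380 to 34743897. C4a, a close copy of C4b that RefSeq annotates as a transcribed pseudogene, had 5.07 (M47) and 4.41 (M49) against 4.71 (M30) and 4.26 (M55), which overlap, with a log2 difference of 0.25 (SE 0.29). Probes of such near-identical genes can cross-hybridize, so the split of signal between C4b and C4a is uncertain.

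C2 encodes the protease that pairs with C4b. The cluster picked by the rule does not lie on the C2 gene. It covers chromosome 17 from 34893350 to 34898265, 11.2 kb away, where RefSeq places Zbtb12. Its log2 values were 3.65, 3.70, 4.32 and 3.28 in M47, M49, M30 and M55, and the genotypes overlapped because the wild-type mice differed by 1.04. The difference was -0.12 (SE 0.33). The other cluster lies on C2 itself, from 34862602 to 34882100, and had 3.71 (M47) and 3.46 (M49) against 3.29 (M30) and 2.68 (M55). Here both Nfkbiz-/- mice were above both wild-type mice, by 0.17 at the nearest, and the log2 difference was 0.60 (SE 0.26, moderated t 2.3, adjusted p = 0.556 by limma), short of a call by its unadjusted p. In 3 of the 4 mice this cluster was below the lower quartile of its array, so C2 was measured near the dim end. Counting C2 by this cluster left 3 of 9 genes called.

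The chains of C1q, which assemble into 1 recognition molecule, did not all pass the test. The 3 genes lie side by side within 18.7 kb of chromosome 4, from 136880129 to 136898844, and each had both Nfkbiz-/- values above both wild-type values. C1qa had 6.35 (M47) and 6.45 (M49) against 5.12 (M30) and 5.75 (M55), a gap of 0.60 between genotypes. It was higher by 0.96 (SE 0.26), or 1.95-fold (moderated t 3.72, adjusted p = 0.468 by limma). Without each mouse the difference was 0.64 to 1.28. Neither form of the methods' t-test called C1qa.

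C1qb had 6.60 (M47) and 6.58 (M49) against 5.65 (M30) and 6.49 (M55). Here 1 wild-type mouse was low and the other, M55, lay 0.09 below the Nfkbiz-/- mice. Its difference of 0.52 (SE 0.29, moderated t 1.76, adjusted p = 0.645 by limma) was not called. It was 0.94 without M55, past both thresholds, and 0.10 without M30. C1qc had 5.49 (M47) and 5.09 (M49) against 4.62 (M30) and 4.90 (M55), with a gap of 0.18. Its difference was 0.53 (SE 0.24, moderated t 2.22, adjusted p = 0.564 by limma), not called with all 4 mice and past both thresholds without M49 (0.73) or without M55 (0.67).

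Cfb is the counterpart of C2 in the alternative pathway, and its gene lies beside C2 on chromosome 17, from 34856374 to 34862518. Its log2 values were 5.72 (M47) and 4.92 (M49) against 5.02 (M30) and 4.80 (M55). M47 alone was high, M49 fell between the wild-type mice, and the Nfkbiz-/- mice differed by 0.80. The difference of 0.41 (SE 0.29, moderated t 1.42, adjusted p = 0.728 by limma) was not called, and it was 0.01 without M47 and 0.81, past both thresholds, without M49.

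Of the anaphylatoxin receptors, C3ar1, which binds C3a, had 5.42 (M47) and 4.98 (M49) against 4.55 (M30) and 4.69 (M55). Both Nfkbiz-/- mice lay above both wild-type mice, by 0.30 at the nearest. The difference was 0.58 (SE 0.23, moderated t 2.52, adjusted p = 0.522 by limma), with an unadjusted p under 0.05, but at 1.496-fold it fell just short of the fold threshold. It passed that threshold after the arrays were quantile-normalized again (0.59) or centred on their medians (0.60), and it was 0.80 and called without M49. C5ar1, which binds C5a, had 4.61 (M47) and 3.98 (M49) against 4.37 (M30) and 4.37 (M55), below the median of the array in every mouse. The wild-type mice lay between the Nfkbiz-/- mice. The difference was -0.07 (SE 0.26, moderated t -0.289, adjusted p = 0.961 by limma), and it was 0.24 without M49 and -0.39 without M47. C3ar1 lies on chromosome 6 from 122847138 to 122856161, and C5ar1 on chromosome 7 from 16246743 to 16259540.

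**Figure D2:**
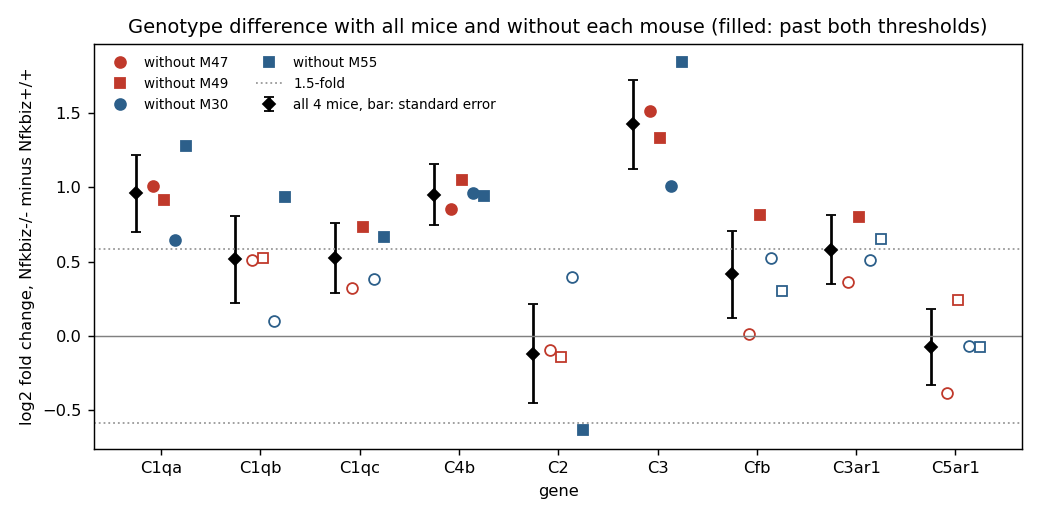
Log2 fold change between genotypes (vertical axis) of each complement gene (horizontal axis); black diamonds show all 4 mice with the standard error, and coloured symbols the value without the mouse named, filled where it passed both thresholds. C3, C4b and C1qa are filled in all 4 cases by limma, while C1qb (0.10 to 0.94) and Cfb (0.01 to 0.81) depend on which mouse is left out.

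To compare roles, the difference of 2 log2 values was taken within each array and compared between genotypes by a 2-sided exact permutation test over the 4 mice. With 2 mice against 2 its smallest possible p is 0.333, so none of the 7 differences computed could pass a threshold of 0.05, before or after adjustment. C3 minus the mean of the C1q genes was 0.80 (M47) and 1.09 (M49) against 0.06 (M30) and 0.31 (M55), which did not overlap (difference between genotypes 0.76, exact permutation p = 0.333). C3ar1 minus C5ar1 was 0.80, 1.0, 0.18 and 0.32 in the same order, also without overlap (0.66, exact permutation p = 0.333). Within C1q, C1qa minus C1qb differed by 0.44 between genotypes and C1qa minus C1qc by 0.44, each without overlap (exact permutation p = 0.333 for both). C1qa minus C1qc was 0.854 (M47) and 1.36 (M49) against 0.496 (M30) and 0.847 (M55), so M47 and M55 nearly met. C3 minus Cfb was 1.22 (M47) and 2.20 (M49) against 0.17 (M30) and 1.23 (M55), so M47 and M55 met (1.01, exact permutation p = 0.667). C3 minus C4b (0.47) overlapped as well. So did Cfb minus C2, at 0.53 with the C2 cluster over Zbtb12 and at -0.19 with the cluster on the C2 gene, so its sign depends on the cluster.

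The spread between mice of a genotype differed among the 9 genes. Between the wild-type mice, C1qb (0.84), C3 (0.84), C1qa (0.63) and C2 (0.61 on the gene, 1.04 for the cluster over Zbtb12) differed more than the median cluster (0.27), whereas C4b (0.02) and C5ar1 (0.01) hardly differed. In C3, C1qa and C1qb the lower wild-type mouse was M30. Between the Nfkbiz-/- mice the widest gaps were in Cfb (0.80), C5ar1 (0.63), C3ar1 (0.43) and C1qc (0.41), against 0.21 for the median cluster, and in all 4 M47 was the higher. For 6 of the 9 genes M47 was above M49, or 7 with the cluster on the C2 gene. Over all 22206 clusters M47 was above M49 in 11536, so the count for the 9 genes is not read as a pattern.

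The genes whose log2 values, centred on their own mean, ran closest to each member over the 4 arrays were sought among 10419 named genes with a range of at least 0.5. With 4 arrays such likeness is a description of these mice only. C1qc ran closest to Cxcl10 (distance 0.02 on the log2 scale), H2-DMb1 (0.03) and Pld2 (0.04), and C3ar1 to Ccar1 (0.03), Apol9b (0.04) and Atxn7l1 (0.05). Cxcl10 encodes an interferon-induced chemokine and H2-DMb1 a chain of the class II peptide-loading molecule. For C4b the nearest were Tnfrsf1b (0.06), Zbtb20 (0.08) and Chd7 (0.10), and for C1qa Steap3 (0.07), Adcy8 (0.10) and Prrg4 (0.10). For C3, with its wider range, they were Tsen15 (0.13), Arhgef38 (0.16) and Il2rb (0.31). C1qb ran closest to Gla (0.03), Phf8 (0.07) and Slc35b4 (0.08), Cfb to Tas2r143 (0.06), Cep120 (0.07) and Olfr651 (0.08), C5ar1 to Ttc21b (0.03), F2 (0.04) and Rasl11a (0.05), and the rule's C2 cluster to Ovol2 (0.04), Celf5 (0.05) and Vmn1r172 (0.06). Among the members themselves, ranked over 11826 clusters, C1qa was the 15th nearest to C3, and C3ar1 the 34th nearest to C1qc. In the other direction C3 was at rank 245 from C1qa. Other pairs ran far apart, with Cfb at rank 3522 and C5ar1 at rank 5989 from C3. C1qb was the 212th and C1qc the 668th nearest to C1qa, and C1qa was the 954th nearest to C1qb.

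The rest of the pathway was followed in 47 other complement genes, all of them in the table. Of these 7 were higher, 1 was lower and 39 were not called, with a median log2 difference of 0.06. Serping1, the C1 inhibitor that blocks the proteases of C1 and of the lectin pathway, had 7.71 (M47) and 7.13 (M49) against 6.24 (M30) and 6.46 (M55). It was higher by 1.07 (SE 0.26, 2.10-fold, adjusted p = 0.468 by limma) and was the 1 of the 8 called genes that stayed past both thresholds without each mouse (0.78 to 1.36). In the lectin pathway Masp2 (0.82, SE 0.25) and Masp1 (0.64, SE 0.25), the proteases that act where C1r and C1s act in the classical pathway, were higher. Masp1 was below the array median in every mouse. The other 7 of 9 genes were not called. Mbl2, a lectin that recruits these proteases, had a difference of -0.01 (SE 0.23). None of the 4 genes for C1r and C1s was called, and C1s1 and C1ra had log2 differences of 0.21 (SE 0.20) and 0.47 (SE 0.21).

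Among other receptors, Itgam (0.78, SE 0.26) and Itgb2 (0.78, SE 0.28), which together form complement receptor 3, and Cd93 (0.77, SE 0.32) were higher. So was the membrane regulator Cd46 (0.85, SE 0.28). These 4 genes were below the array median in every mouse. Cr2, the B cell receptor for C3 fragments, had 4.33 in M47 and 3.12 to 3.35 in the other mice and was not called. C1qbp, which encodes a protein that binds C1q, had a difference of -0.48 (SE 0.22), not called. Among regulators, Cd59a, which blocks the membrane attack complex, at 8.17, 7.84, 7.78 and 8.78 in M47, M49, M30 and M55, overlapped between genotypes, as did Csmd1 (-0.03, SE 0.26) and the fluid-phase regulator Clu, or clusterin (0.39, SE 0.36). None of the 7 terminal pathway genes was called, and the log2 differences of C8g and C8a, which encode chains of C8, were 0.06 (SE 0.20) and -0.06 (SE 0.20). Hc, the gene for C5, was below the lower quartile of the array in all 4 mice.

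Cfd, or adipsin, the protease that cleaves factor B and is known as a product of fat cells, was the gene called lower. Its log2 value was 4.92 (M47) and 4.95 (M49) against 5.38 (M30) and 7.02 (M55). The log2 difference was -1.26 (SE 0.47). It was -2.08 and called without M30, and it lost its call without M55 (-0.44), the mouse with high fat cell markers, and also without M47 (-1.25) and M49 (-1.28). Properdin, the product of Cfp, which stabilizes the alternative-pathway enzyme, had a difference of 0.56 (SE 0.28), not called. Besides Cfd, each of Masp1, Masp2, Cd46, Itgam, Itgb2 and Cd93 lost its call without at least 1 mouse, so 7 of the 8 did. Masp1 kept its call only without M30 and Itgb2 only without M49, and the other 4 each kept it without 2 of the mice. Without M47 the values of Cd46, Itgb2 and Cd93 were 0.48, 0.40 and 0.40. Masp1 was 0.34 and Itgam 0.53 without M55, and Masp2 was 0.57 without M30.

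**Figure D3:**
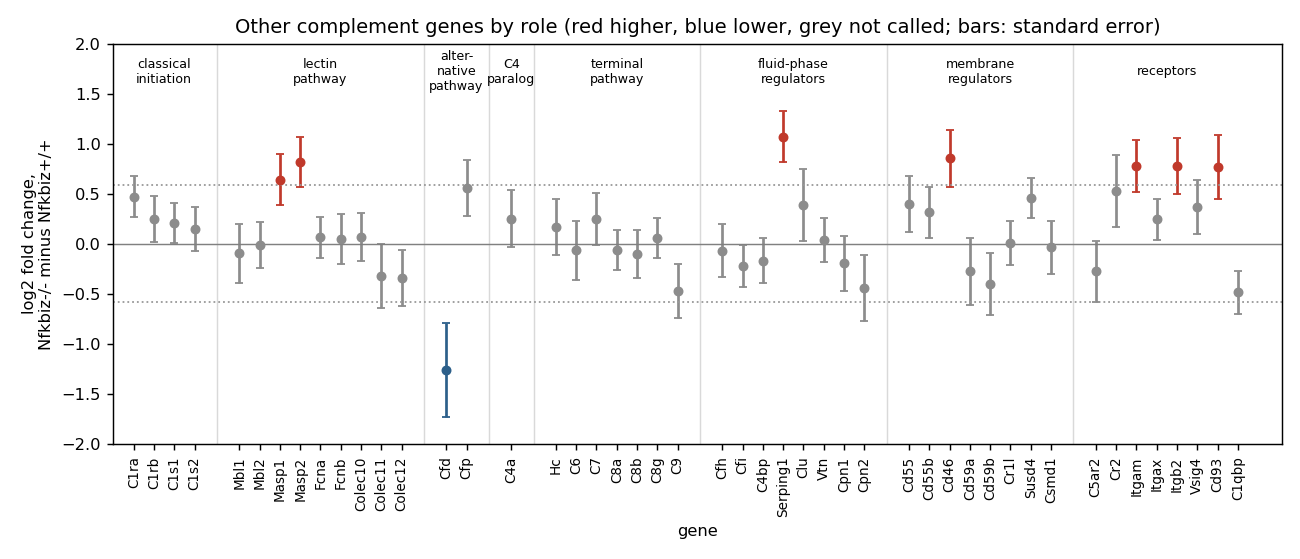
Log2 fold change between genotypes with its standard error (vertical axis) of 47 complement genes outside the 9 (horizontal axis), grouped by role; red was called higher, blue lower, grey not called, and dotted lines mark 1.5-fold. Serping1 (1.07) is the highest and Cfd (-1.26) the lowest, and the terminal pathway holds no called gene.

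Markers of cells that can make complement were set beside these values. Of 16 macrophage markers 3 were higher, Cd68 (1.13, SE 0.41), Mrc1 (0.82, SE 0.22) and Ctss (0.69, SE 0.25), and 0 were lower. The mean of the list was 5.43 (M47) and 5.20 (M49) against 4.92 (M30) and 5.13 (M55). Its median log2 difference was 0.41, and the difference was above 0 for 13 of the 16. In 6 of the macrophage markers both Nfkbiz-/- mice lay above both wild-type mice, and in 2 they lay below both. Adgre1, a defining macrophage surface marker, had a difference of -0.47 (SE 0.28) and Trem2 one of -0.52 (SE 0.21), neither called. Of 9 monocyte and dendritic cell markers, Ly6c2 (1.18, SE 0.47) and Ccr2 (0.99, SE 0.22) were higher and 0 were lower, with Ccr2 below the lower quartile of the array in every mouse. The mean of the list was 3.93 to 4.01 in the Nfkbiz-/- mice against 3.62 to 3.82 in the others. The median log2 difference of the 9 was -0.01, and the difference was above 0 for 4 of the 9. Both Nfkbiz-/- mice lay above both wild-type mice in 3 of these markers and below both in 2. None of 9 B cell, 10 T cell, 10 neutrophil, 6 mast cell, 8 fibroblast or 7 endothelial markers was called, nor of 5 lymphoid stroma genes in the table. Whether more macrophages or monocytes had a part in the higher C1qa, C3 and C4b was not tested. Of 8 hepatocyte markers only Ttr was higher (0.68, SE 0.24), and Alb, the albumin gene, was below the lower quartile of the array in every mouse.

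Markers of blood and of tissue around the gland ran the other way. Of 5 erythroid genes 4 were lower, and their mean was 5.42 in M47 and 6.82 in M49 against 9.25 in M30 and 8.68 in M55. Of the fat cell markers 5 of 10 were lower and of the muscle markers 4 of 9. The part of blood, fat and muscle RNA in the differences of the 9 complement genes was not tested. Without M55, the mouse with most fat and muscle signal, the log2 differences of C3, C1qa and C4b were 1.84, 1.28 and 0.94. The erythroid mean was highest in M30, without which they were 1.01, 0.64 and 0.96, and in both wild-type mice it lay above both Nfkbiz-/- mice.

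Genes of signalling known to act on complement expression were compared in the same way. Of 40 interferon-stimulated genes 30 were higher and 0 lower, with a median log2 difference of 1.11. Over all clusters 2.93% were called higher. The list was chosen with earlier results of these data known, so its count is a description only. Their mean was 6.20 (M47) and 5.61 (M49) against 4.84 (M30) and 4.77 (M55), and 36 of the 40 were higher in M47 than in M49. Between these mice, Cfb (0.80), C5ar1 (0.63), C3ar1 (0.43), C1qc (0.41), C4b (0.20) and C1qb (0.02) were higher in M47. C3 (0.18), C1qa (0.10) and the rule's C2 cluster (0.05) were higher in M49. The median cluster differed by 0.21. The part of interferon signalling in the differences of the 9 genes was not tested. Of 24 NF-κB targets and acute-phase genes 1 was higher, Bcl3 (1.30, SE 0.46), a relative of IκB-ζ, and 1 lower, Hp (-1.02, SE 0.33), which encodes haptoglobin. The mean of that list, 5.21, 5.05, 4.64 and 5.39 in M47, M49, M30 and M55, overlapped between genotypes.

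**Figure D4:**
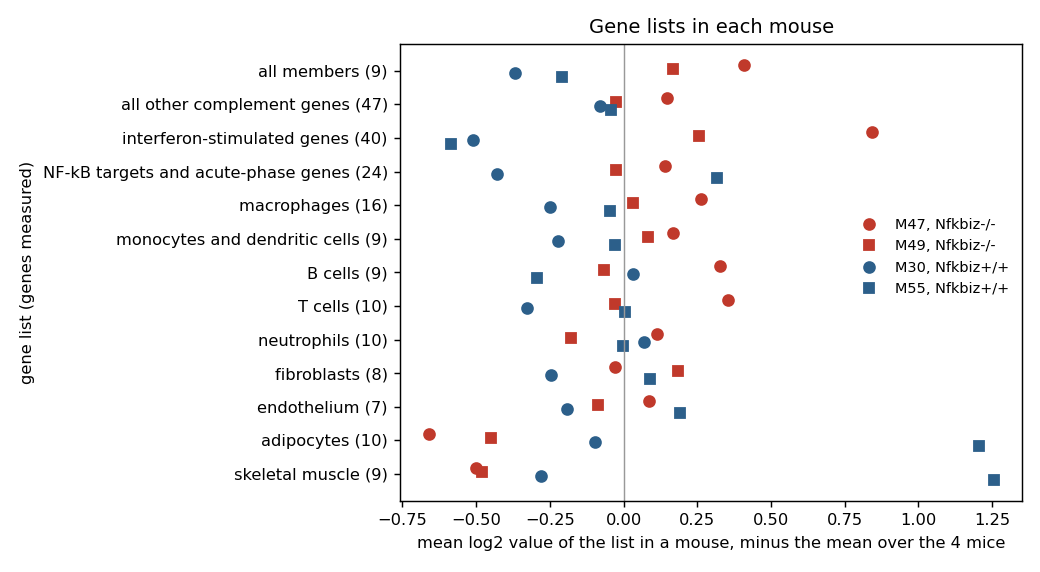
Mean log2 value of each gene list in each mouse, less the mean over the 4 mice (horizontal axis), for the 9 complement genes, the other complement genes, and comparison and marker lists (vertical axis, genes measured in brackets); red is Nfkbiz-/-, blue Nfkbiz+/+. Interferon-stimulated genes separate the genotypes, with M47 highest (6.20 before centring), and M55 stands apart in adipocyte (5.87) and skeletal muscle (5.42) genes.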

How the data were processed

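Per the labels and the study's methods, total RNA was extracted with an easy-BLUE kit, labelled with the WT PLUS kit and hybridized to 1 array per mouse. The authors ran gene-level RMA in Affymetrix Power Tools and deposited log2 values, which ran from 0.904 to 13.3 and were used as deposited. Both deposited tables hold the same values, and the columns with the authors' fold changes, p-values and enrichment counts were not used. No version of the annotation was stated in the labels or methods. Of 21012 clusters on the same chromosome as their RefSeq gene in GRCm38.p6, 98.9% overlapped it.

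Mice were grouped by their labels. Genotypes were compared by limma 3.58.1 (lmFit, eBayes; R 4.3.3; 2 residual and 5.53 prior degrees of freedom), with Benjamini-Hochberg adjustment over all 22206 clusters. The code was tested on simulated data. For role differences an exact permutation test over mice was run in Python 3.11.15. Alternatives were t-tests with equal and unequal variances, an intensity trend, quantile normalization or median centring again, only clusters above the median signal, 1 or the mean cluster per gene, a 2-fold threshold, adjusted p, the other table and leaving out each mouse. The second C2 cluster, also in the role difference, was added after the data were seen. The members and gene lists were chosen with earlier results of these data known. Named were the 9 genes, called genes of the lists (up to 4 a marker list), the 2 of highest mean signal in each complement role, defining markers near the lower quartile, and the 3 genes closest to each member; Cr2, Hc, Adgre1, Trem2, Bcl3 and Hp were named after their values were seen. Arrays carry no read depth, and the number of mice limits the precision.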

Additional observations from a re-analysis of the deposited data

How the results depend on the processing

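C3, C4b and C1qa kept their direction under all alternatives run. In limma they stayed past both thresholds with an intensity trend, under both other normalizations and in the other table. They also did so with bright clusters only and by 1 or the mean cluster per gene. Leaving out a mouse leaves 1 in its genotype, so calls in those fits are no measure of stability. The methods' t-test, whose form the methods do not state, with equal variances called 1 of the 9 genes (C4b) and that with unequal variances 0. A 2-fold threshold left 1 (C3), and an adjusted p under 0.05 left 0. Adjusted p over the alternatives with all 4 mice was 0.297 to 0.957 for C3, 0.290 to 0.957 for C4b and 0.303 to 0.957 for C1qa. Leaving out each mouse gave 3 to 6 called genes. Without M49 the 6 were higher and added C1qc, C3ar1 and Cfb. Without M55, 5 were higher, with C1qb and C1qc added, and 1, the rule's C2 cluster, was lower (-0.64). The sign of C2 turned with the mean of both its clusters (0.24), with the cluster on the gene (0.60) and without M30 (0.40), and that of C5ar1 without M49 (0.24; -0.39 without M47). The cause of these shifts was not tested. Of the 7 role differences, Cfb minus C2 turned with the cluster on the C2 gene (-0.19), and no other sign turned in the normalizations, the other table or without each mouse.

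Of the other complement genes 8 were called, by either t-test 0, among clusters above the median signal 3 of the 18 tested, at 2-fold 2, by adjusted p 0, and 2 to 11 without each mouse, the fewest without M47. Over all clusters 1471 were called (475 and 212 by the t-tests, 901 among bright clusters, 200 at 2-fold, 0 by adjusted p). No paired analysis was possible because the mice of the genotypes share no replicate number. With 2 mice a group, a difference that was not called is not shown to be absent, and C5ar1, C2 and most receptors lay in the dimmer part of the arrays.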
